A study of Mus musculus with 24 samples.

Results

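The genes Pdpn, Pde6h, Rtraf, Arap2, B4galt6, Tmem252 and Gask1b were counted in wild-type GT1-7 cells and were near 0 in a stable line of the same cells labelled Mkrn3ox. They were picked by name for that pattern, so their difference between the lines is described here and not tested. They are 7 of 57010 gene rows in each of 2 count tables, and each name matched 1 row per table. All 7 passed the filter on low counts in the fractionation experiment, through the wt libraries where they are high, and 6 of 7 passed it in the pull-down experiment, where Tmem252 did not.

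GT1-7 is an immortalised mouse hypothalamic cell line that makes gonadotropin-releasing hormone, and Mkrn3 encodes makorin ring finger protein 3, an RNA-binding E3 ubiquitin ligase known as a brake on puberty. In the fractionation experiment, total RNA and cytoplasmic RNA came from cells stably expressing GFP-Mkrn3 (labelled Mkrn3ox) and from wild-type cells (labelled wt). In the pull-down experiment (RNA immunoprecipitation, RIP), GT1-7 cells received 6 µg of GFP-Mkrn3 or GFP plasmid for 24 h, and GFP-trap beads gave an IP library next to an input library taken from 5% of the lysate. Each of the 8 groups has 3 libraries, all made with CEL-seq2, which counts transcript 3′ ends, so that a level does not scale with transcript length. The sources used here do not say which promoter drives the transgene, how many clones make up the stable line or whether a group's libraries stem from separate cultures. The p-values below therefore measure only the spread between these libraries, which may be technical.

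The genes have unrelated known roles. Pdpn encodes podoplanin, a mucin-like membrane glycoprotein that binds the platelet receptor CLEC-2, links to the actin cytoskeleton through ezrin and moesin, and marks lymphatic endothelium and stromal cells. Arap2 encodes a GTPase-activating protein for Arf6. B4galt6 encodes a lactosylceramide synthase, at the root of ganglioside synthesis, and Gask1b encodes a Golgi-associated kinase-like protein. Rtraf encodes a subunit of the tRNA ligase complex, known from human cells to work with RTCB and DDX1 in tRNA splicing. Pde6h encodes the inhibitory subunit of the cone photoreceptor phosphodiesterase, and Tmem252 encodes a transmembrane protein.

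Library depth was 374386 to 759271 counts in the fractionation experiment and 6254703 to 14575652 counts in the RIP experiment. The Mkrn3 row held 0 counts in all total RNA libraries of both lines, 6 counts over the 3 Mkrn3ox-labelled cytoplasmic libraries and 1 count over the 3 wt cytoplasmic libraries. The sources used here do not say whether the stable transgene carries the 3′ end that these libraries count, so the row may check nothing in the stable line, and directions below are those of the libraries as labelled. In the RIP inputs the same row averaged 3688 ± 74.2 CPM with GFP-Mkrn3 and 6.20 ± 2.33 CPM with GFP (SD, n = 3 each). Of 14 neuronal markers, 4 to 7 had counts in a group. Gnrh1 and Map2 were counted in every library, while Snap25 had at most 1 count and Stmn2 at most 2 counts in any library. Tubb3 had 4 to 5 counts per Mkrn3ox-labelled total RNA library and 0 in wt total RNA, and 1 to 4 against 0 to 1 in the cytoplasm. Of 10 glial markers 2 to 4 had counts in a group, and of 5 immune markers at most 1. Of 10 lymphatic endothelial and fibroblastic markers, 3 had counts in Mkrn3ox-labelled total RNA and 2 in wt total RNA, with summed levels of 27.6 to 98.1 CPM and 3.29 to 9.38 CPM. Col1a1 was the called one, at 52.5 CPM in Mkrn3ox-labelled and 6.03 CPM in wt total RNA (edgeR quasi-likelihood test, log2 fold change 3.05, adjusted p = 0.0262), a call lost in 5 of 6 fits that left out 1 library (edgeR adjusted p up to 0.224). Col1a1 had 2 to 7 counts per wt total RNA library and passes the filter on low counts through the Mkrn3ox-labelled libraries, so its call is a description. Its part in the results below was not tested.

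The 7 genes lie on 7 different chromosomes, and the sequence before their starts differs widely. Windows of 250 bases upstream of the start (RefSeq, GRCm38.p6) were at hand for 6 of the 7, and the 3 below are shown because they span the range of CpG content among genes that moved together. CpG sites are in capitals, and each window runs 5′ to 3′ along the gene's strand. The Arap2 window lies on the minus strand at chr5:62766178-62766427, the Rtraf window on the minus strand at chr14:19823824-19824073, and the Tmem252 window on the plus strand at chr19:24673758-24674007.
Arap2: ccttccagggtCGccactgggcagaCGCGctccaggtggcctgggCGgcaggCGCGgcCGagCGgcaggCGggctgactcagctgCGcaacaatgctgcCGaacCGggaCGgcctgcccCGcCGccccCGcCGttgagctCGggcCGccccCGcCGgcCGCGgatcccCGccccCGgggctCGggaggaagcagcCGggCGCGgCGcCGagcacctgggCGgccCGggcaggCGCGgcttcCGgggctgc
Rtraf: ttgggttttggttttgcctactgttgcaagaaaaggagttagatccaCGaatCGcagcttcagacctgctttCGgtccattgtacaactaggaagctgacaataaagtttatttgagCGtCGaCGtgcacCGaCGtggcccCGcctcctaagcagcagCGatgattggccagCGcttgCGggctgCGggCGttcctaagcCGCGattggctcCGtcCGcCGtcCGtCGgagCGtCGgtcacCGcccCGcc
Tmem252: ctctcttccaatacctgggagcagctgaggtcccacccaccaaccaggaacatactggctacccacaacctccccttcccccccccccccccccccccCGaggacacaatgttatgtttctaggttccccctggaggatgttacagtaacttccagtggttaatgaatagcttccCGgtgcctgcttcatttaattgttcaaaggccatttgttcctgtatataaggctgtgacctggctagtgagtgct

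Arap2 held 36 CpG sites and Rtraf 25, against 2 each in Tmem252, Pde6h and Pdpn and 3 in Gask1b. Over 27025 promoters of this length the median was 6, and 97.5% had fewer than Arap2 and 89.7% fewer than Rtraf. GC content ran from 39.6% in Gask1b to 80.8% in Arap2, with a median of 52% over all promoters. Of 6 motifs searched on both strands, GGGCGG matched in Arap2 and Rtraf (32.9% of all promoters hold it), CCAAT in Rtraf and Tmem252 (34.5%), CACGTG in Pdpn (6.05%) and TGACTCA in Arap2 (4.43%). TATAAA (13.0% of all promoters) and TGACGTCA (1.62%) matched in none of the 6 windows, and Pde6h and Gask1b held none of the motifs. No motif searched was found in more than 2 of the 6. The windows of Pde6h and Gask1b, both on the plus strand, begin at 136954273 and 79885680. Their gene spans begin earlier, at 136952218 and 79884484, so these windows stand before a start inside the span. On the minus strand, the Arap2 window reaches down to 62766178, while its gene span ends at 62766192, so the same holds for Arap2.

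Counts in the stable line separated completely from those in wt cells for each of the 7 genes in both RNA fractions. Among all tested genes, calls lower in the stable line made up 3.83% for total RNA and 6.14% for the cytoplasm, and nothing is read from this beside genes chosen for that contrast. Levels are CPM (counts per library total, after edgeR's TMM normalisation), with SD and 3 libraries a group. A fold is taken on counts summed over a group's libraries, with a 95% exact binomial interval that covers counting error only. Where a group holds 0, the fold is taken against a floor of 3 counts per group. Such a bound takes the wt counts as exact, so it is not comparable to the intervals and is less cautious. In bulk RNA, fewer cells with the transcript and less transcript per cell cannot be told apart.

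**Figure D1:**
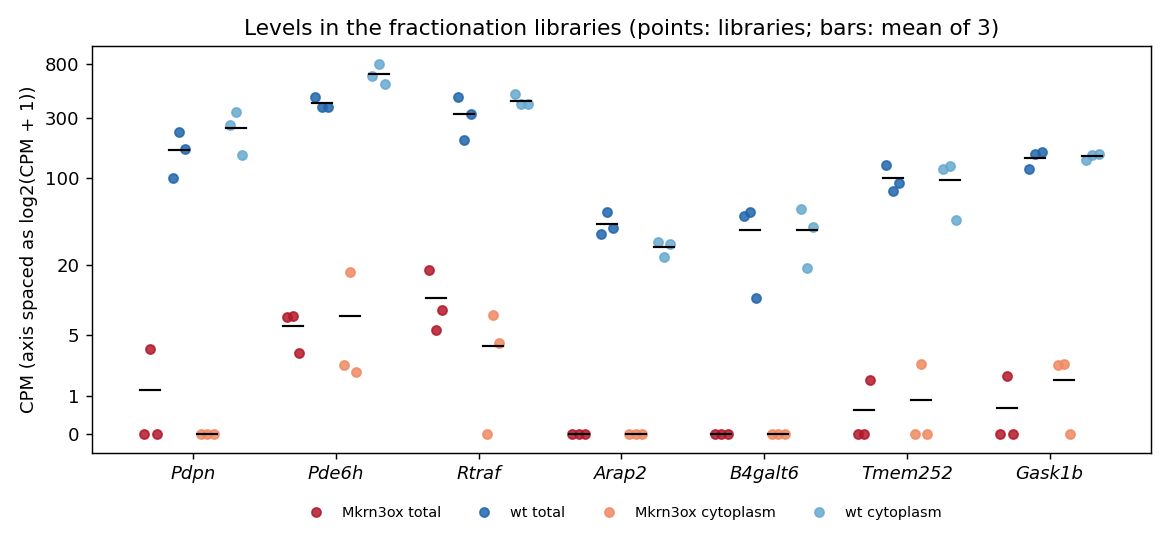
CPM of the 7 genes in each fractionation library (points, 3 a group) with group means (bars), on an axis spaced as log2(CPM + 1). Mkrn3ox-labelled libraries stand left of wt libraries in total RNA and then in cytoplasmic RNA, and for each gene the highest Mkrn3ox-labelled point lies below the lowest wt point of the same fraction.

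Pdpn had 0, 2 and 0 counts in Mkrn3ox-labelled total RNA, against 56, 142 and 128 counts in wt total RNA. In the cytoplasm it had 0 counts in each Mkrn3ox-labelled library, against 102, 158 and 56 counts in wt libraries. Podoplanin RNA was thus all but uncounted in the stable line and well counted in wt cells, where it averaged 169 ± 66.5 CPM in total RNA and 251 ± 92.0 CPM in the cytoplasm. The fold was 144 lower in Mkrn3ox-labelled total RNA (interval 39.7 to 1198) and at least 110-fold lower in the cytoplasm.

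Arap2, the Arf6 regulator, and B4galt6, the lactosylceramide synthase, had 0 counts in all 6 Mkrn3ox-labelled libraries. Arap2 had 20, 33 and 30 counts in wt total RNA and 12, 11 and 11 counts in wt cytoplasm, which places it at least 24.5-fold lower in Mkrn3ox-labelled total RNA and at least 11.8-fold lower in the cytoplasm. B4galt6 had 28, 33 and 8 counts in wt total RNA and 22, 9 and 15 counts in wt cytoplasm, at least 20.4-fold and at least 16.0-fold lower in the Mkrn3ox-labelled libraries of the same fractions. These were the least counted of the 7 in wt cells, at 43.5 ± 9.61 CPM (Arap2) and 38.5 ± 24.1 CPM (B4galt6) in total RNA. These bounds depend on single libraries. Leaving out 1 library moved the bound of Arap2 to 15.8 to 26.2 in total RNA and 7.36 to 13.0 in the cytoplasm, and that of B4galt6 to 13.1 to 29.6 in total RNA and 9.95 to 20.9 in the cytoplasm. The lowest came without Mkrn3ox-labelled library 3 each time, and the highest for B4galt6 without wt total RNA library 3, its low one, and wt cytoplasm library 2.

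Pde6h was the most counted of the 7 in wt cells, and its RNA was not wholly missing in the stable line. It had 4, 4 and 2 counts in Mkrn3ox-labelled total RNA, against 245, 223 and 272 counts in wt total RNA, or 6.00 ± 2.32 CPM against 391 ± 43.6 CPM. In the cytoplasm it had 1, 7 and 1 counts in Mkrn3ox-labelled libraries, against 249, 371 and 204 counts in wt libraries. The fold was 65.6 lower in Mkrn3ox-labelled total RNA (35.5 to 137) and 95.3 lower in the cytoplasm (49.9 to 209). Library 2 held 7 of the 9 cytoplasmic counts, and without it the cytoplasmic fold was 296.

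Rtraf, the tRNA ligase subunit, kept the most counts in total RNA of the stable line. It had 10, 3 and 5 counts in Mkrn3ox-labelled total RNA, against 245, 121 and 241 counts in wt total RNA, or 10.7 ± 6.70 CPM against 321 ± 121 CPM. In the cytoplasm it had 0, 3 and 2 counts in Mkrn3ox-labelled libraries, against 177, 182 and 141 counts in wt libraries. The fold was 29.9 lower in Mkrn3ox-labelled total RNA (18.8 to 50.8) and 104 lower in the cytoplasm (44.3 to 322). Without Mkrn3ox-labelled library 1, which held 10 of the 18 counts, the fold in total RNA was 45.5, and without library 2 the cytoplasmic fold was 179.8.

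Gask1b, the Golgi kinase-like gene, had 0, 1 and 0 counts in Mkrn3ox-labelled total RNA, against 66, 95 and 121 counts in wt total RNA, a fold of 249.9 lower with the widest reach of all (44.5 to 9907). In the cytoplasm it had 1, 1 and 0 counts in Mkrn3ox-labelled libraries, against 54, 72 and 57 counts in wt libraries, 95.2-fold lower (26.0 to 792). Tmem252 had 0, 0 and 1 counts in Mkrn3ox-labelled total RNA, against 71, 48 and 69 counts in wt total RNA, 167-fold lower (29.5 to 6616). Its cytoplasmic counts were 0, 1 and 0 in Mkrn3ox-labelled libraries, against 46, 59 and 17 in wt libraries, 127-fold lower (22.4 to 5054). With so few counts in the stable line, single libraries decide these folds: without the library that held its only count or counts, the bound was 56.6-fold for Gask1b, 35.8-fold for Tmem252 and 65.4-fold for Pdpn in total RNA, and 29.2-fold for Tmem252 in the cytoplasm. For Gask1b in the cytoplasm the fold was 59.4 without library 3.

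The same pattern was uncommon among the genes tested. Of 5033 genes, 38 (0.755%) had a mean of at least 20 CPM in wt total RNA and at most 1/20 of it in Mkrn3ox-labelled total RNA, and 49 (0.974%) did so in the cytoplasm, all 7 genes among them both times. In both fractions at once, 25 genes met it, and 23 of these could be placed on 13 chromosomes. They were not spread evenly, as 8 of the 23 lay on 1 chromosome. The opposite pattern, near absent in wt, was met by 20 genes in total RNA, 22 in the cytoplasm and 6 in both. The 7 genes were chosen for this pattern, so nothing further is read from these counts.

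None of the 7 passed the test for cytoplasm against total RNA within wt cells (edgeR quasi-likelihood F test, Benjamini-Hochberg adjusted over 5033 genes, call at an adjusted p under 0.05), where 3.78% of all genes did, and 1 of 7 had an unadjusted p under 0.05. That one was Pde6h, at 663 ± 116 CPM in cytoplasm and 391 ± 43.6 CPM in total RNA (log2 fold change 0.76, SE 0.27, edgeR adjusted p = 0.150). DESeq2 called it alone of the 7 (adjusted p = 0.0472). Pdpn had a log2 fold change of 0.57 (approximate 95% interval -0.21 to 1.35) and Arap2 one of -0.63 (-1.97 to 0.72). The median over the 7 was 0.03 and that over all genes 0.01. The genes were chosen for high wt levels, so the contrast is only partly independent of the choice.

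The RIP cells show the 7 genes in GT1-7 cells outside the stable line, and 5 of them were well counted there. In the GFP inputs Gask1b had 1669, 1877 and 2146 counts, Rtraf 972, 940 and 1000, Pdpn 744, 827 and 875, Arap2 557, 580 and 635, and B4galt6 434, 501 and 612. Pde6h and Tmem252 stood apart. Pde6h, at 391 CPM above 92.9% of tested genes in wt total RNA, had 34, 17 and 2 counts in the GFP inputs, or 2.36 ± 2.35 CPM, above 14.5% of tested genes. Tmem252, at 99.8 CPM above 75.5% of tested genes in wt total RNA, had 1 count over all 12 RIP libraries. Its 0 counts in the GFP inputs allow a level of up to 0.122 CPM and those in the GFP-Mkrn3 inputs up to 0.124 CPM. The tables were scaled separately, so levels of the 2 experiments stand side by side and were not tested against each other.

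**Figure D2:**
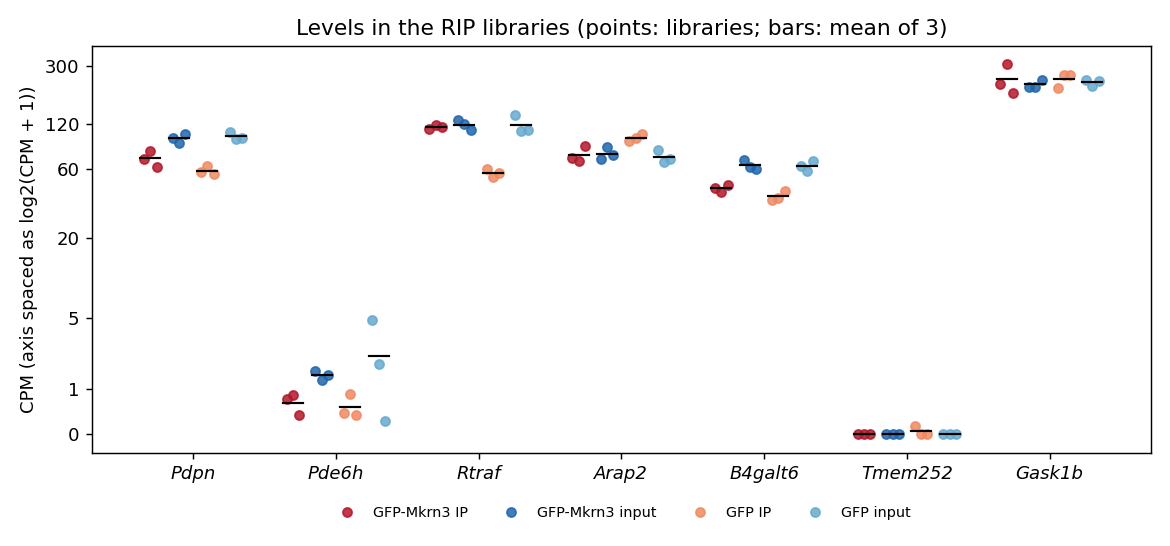
CPM of the 7 genes in each RIP library (points, 3 a group) with group means (bars), on an axis spaced as log2(CPM + 1). Groups run GFP-Mkrn3 IP, GFP-Mkrn3 input, GFP IP and GFP input, and Pde6h and Tmem252 lie near 0 in all of them while the other 5 genes lie between 36.5 and 305 CPM.

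For the 5 well-counted genes, levels with transient GFP-Mkrn3 and with GFP lay close together in the inputs. In the GFP-Mkrn3 inputs Pdpn had 763, 684 and 900 counts, against 744, 827 and 875 counts in the GFP inputs, and the 2 groups overlapped. None of the 6 tested genes passed the test (edgeR and DESeq2 alike, and 0 of 6 at an unadjusted p under 0.05), where 2 of 13052 genes (0.0153%) did, so the count itself is no result about the 6. Tmem252 was not tested. For the 5 well-counted genes the log2 fold changes ran from -0.04 to 0.07, with approximate 95% intervals of -0.24 to 0.16 for Pdpn, -0.20 to 0.20 for Rtraf, -0.14 to 0.29 for Arap2, -0.19 to 0.22 for B4galt6 and -0.29 to 0.20 for Gask1b. For Pde6h, with 13, 10 and 13 counts in the GFP-Mkrn3 inputs and 34, 17 and 2 counts in the GFP inputs, the interval was wide (log2 fold change -0.60, -1.85 to 0.65), and without GFP input library 1 the value was 0.46.

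In the pull-down, Rtraf RNA stood near its input level with GFP-Mkrn3 and below it with GFP alone. Rtraf had 111, 119 and 115 CPM in the GFP-Mkrn3 IPs, against 128, 120.5 and 109.98 CPM in their inputs, and 59.3, 53.0 and 55.6 CPM in the GFP IPs, against 139, 109 and 110.3 CPM in their inputs. The GFP-Mkrn3 IPs overlapped their inputs and the GFP IPs lay below all of theirs. IP over input was -0.05 on the log2 scale with GFP-Mkrn3 (SE 0.10, edgeR adjusted p = 0.746) and -1.09 with GFP (SE 0.11, edgeR adjusted p = 1.23e-07). The difference, called enrichment beyond GFP, was 1.04 (SE 0.15, interval 0.76 to 1.33, edgeR adjusted p = 0.000105), higher than in 90.9% of tested genes. It was 1.04 without GFP-Mkrn3 IP library 3, which moved the number of genes called most, and passed the test under all 18 alternatives.

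**Figure D3:**
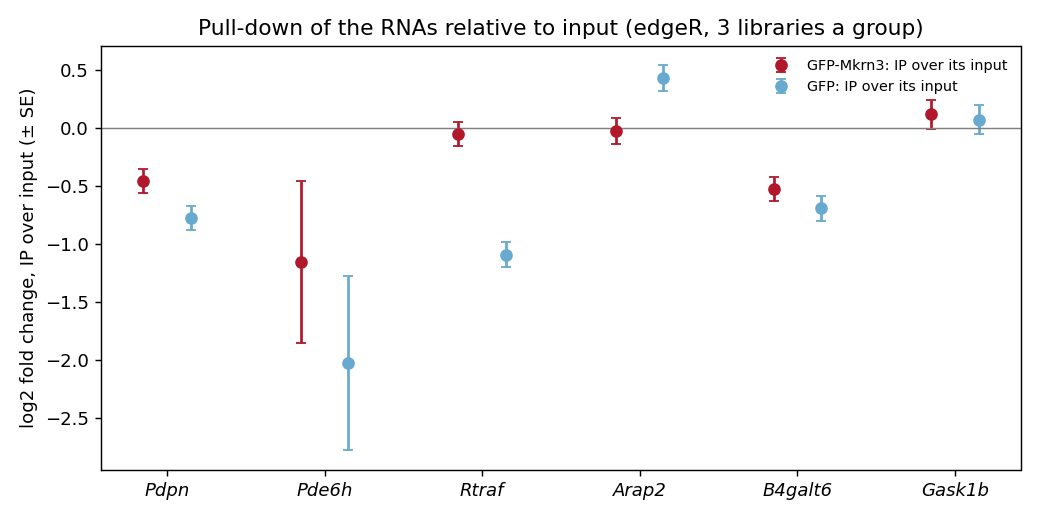
Log2 fold change of IP over input (points, with SE bars, edgeR on 3 libraries a group) for the 6 tested genes, GFP-Mkrn3 left of GFP. Rtraf lies at -0.05 with GFP-Mkrn3 and -1.09 with GFP, and Arap2 lies at -0.03 with GFP-Mkrn3 and 0.43 with GFP.

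Arap2 went the other way. It had 70.9, 67.4 and 86.3 CPM in the GFP-Mkrn3 IPs, against 70.0, 84.1 and 74.0 CPM in their inputs, and 92.6, 97.6 and 103 CPM in the GFP IPs, against 79.9, 67.1 and 70.0 CPM in their inputs. It rose in the GFP IP (log2 fold change 0.43, SE 0.11, edgeR adjusted p = 0.00299), while its change with GFP-Mkrn3 was -0.03 (adjusted p = 0.884). The enrichment beyond GFP was -0.46 (SE 0.16, edgeR adjusted p = 0.0378). That call was lost in 10 of 18 alternatives, in 8 of them by leaving out 1 library, and over all alternatives the value ran from -0.57 to -0.27. Without GFP-Mkrn3 IP library 3 it was -0.57 (edgeR adjusted p = 0.00313).

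Pdpn and B4galt6 were lower in both kinds of IP than in the inputs. Pdpn had 70.5 ± 8.94 CPM in the GFP-Mkrn3 IPs and 96.9 ± 6.68 CPM in their inputs (log2 fold change -0.46, SE 0.10, edgeR adjusted p = 0.00325). With GFP it had 58.1 ± 3.65 CPM in the IPs and 99.6 ± 6.20 CPM in the inputs (-0.77, adjusted p = 7.39e-06, edgeR). B4galt6 had 44.0 ± 2.57 CPM in the GFP-Mkrn3 IPs and 63.4 ± 5.0 CPM in their inputs (-0.53, edgeR adjusted p = 0.00144), and 38.8 ± 3.02 CPM in the GFP IPs and 62.6 ± 4.80 CPM in theirs (-0.69, edgeR adjusted p = 3.76e-05). All 3 IP libraries of a plasmid lay below all 3 of its inputs for both genes. The enrichment beyond GFP was 0.32 for Pdpn (interval 0.03 to 0.61, edgeR adjusted p = 0.123) and 0.16 for B4galt6 (-0.13 to 0.46, adjusted p = 0.466), neither past the threshold. Pdpn's passed it without GFP-Mkrn3 IP library 3 (0.40, edgeR adjusted p = 0.0284) and with scaling by library size alone (0.51, edgeR adjusted p = 0.0172), a scaling that moved the median of all genes to 0.23.

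Gask1b showed no detectable pull-down in either direction. It had 226, 305 and 197 CPM in the GFP-Mkrn3 IPs, against 215, 216 and 241 CPM in their inputs, and the groups overlapped. Its log2 fold change was 0.12 with GFP-Mkrn3 (interval -0.12 to 0.36) and 0.07 with GFP (-0.17 to 0.32). Pde6h had 8, 13 and 3 counts in the GFP-Mkrn3 IPs, against 13, 10 and 13 counts in their inputs, and 3, 7 and 2 counts in the GFP IPs, against 34, 17 and 2 counts in theirs. It fell in the GFP IP (-2.03, SE 0.75, edgeR adjusted p = 0.0311), but the call rested on GFP input library 1, without which the value was -0.98 (adjusted p = 0.298), and it was also lost without GFP IP library 1 (adjusted p = 0.107) or library 3 (0.0946).

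Counted together, 2 of the 6 tested genes were lower and none higher in the GFP-Mkrn3 IP, where 12.8% of all genes were lower, 13.9% higher and 26.7% changed either way. In the GFP IP 4 of 6 were lower and 1 higher, where 50.3% of all genes changed, 25.2% lower and 25.1% higher. For enrichment beyond GFP, 1 of 6 was higher and 1 lower, where 24.3% of all genes passed, 13.2% of all genes higher and 11.1% lower. The shares of the 6 genes are near those of all genes in the last contrast, and no shared behaviour in the pull-down can be read from so few genes.

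Rows beside the 7 genes were looked at to see whether they differ between the lines too. Overlapping genes and those within 5 kb were listed because the sources used here do not state whether counting used strand. Distance was taken from the gene body to the lower coordinate of the other gene. Within 500 kb of the 7 genes, 10 other genes were tested between the lines, 4 of them near Pde6h, 3 near Gask1b, 2 near B4galt6 and 1 at Rtraf. Of these, 4 were lower and 0 higher in Mkrn3ox-labelled total RNA, where 7.39% of all genes were called, 3.83% lower and 3.56% higher. In the cytoplasm 3 were lower and 0 higher, where 10.5% of all genes were called, 6.14% lower and 4.31% higher. With library size as scaling, 3 neighbours were lower and 1 higher in the cytoplasm, where 189 of all genes were lower and 507 higher, and DESeq2 also called 1 neighbour higher there. Genes near 0 in the stable line can pass the filter on low counts only through wt libraries. That holds for Tmem144, Arhgdib and Nid2, so these 3 are described by their values and nothing is read from the tally of neighbours.

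**Figure D4:**
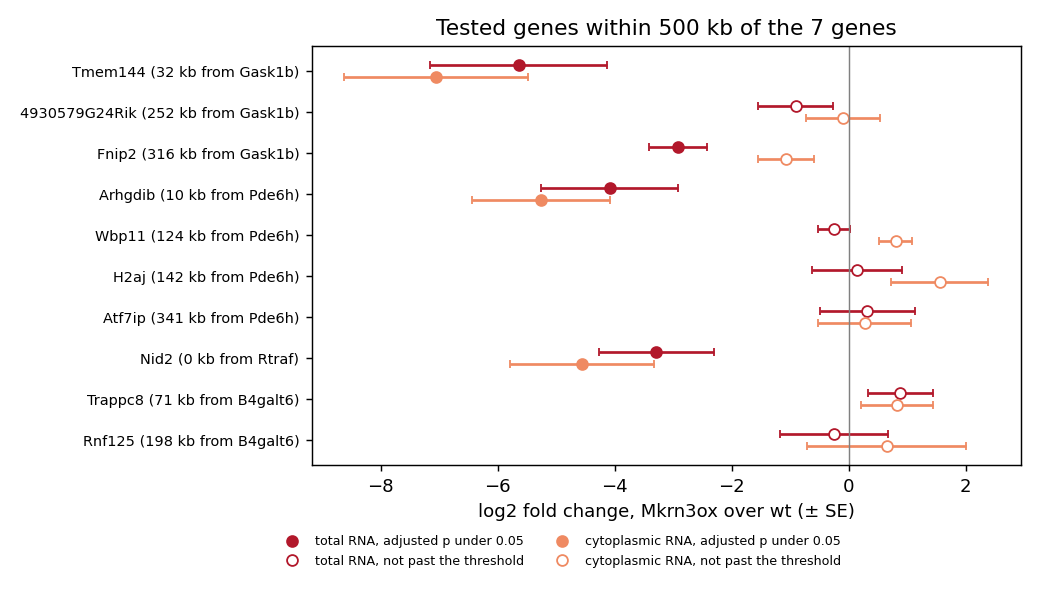
Log2 fold change of Mkrn3ox-labelled over wt libraries (with SE, edgeR) for the 10 tested genes within 500 kb of the 7 genes, in total and cytoplasmic RNA. Labels give the gap between the genes in kb, and filled points (Tmem144, Arhgdib and Nid2 in both fractions, Fnip2 in total RNA) were called, all to the left of 0. Tmem144, Arhgdib and Nid2 pass the filter on low counts only through wt libraries, so their filled points are a description.

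Tmem144, 31.7 kb from Gask1b, had 0 counts in all 6 Mkrn3ox-labelled libraries, against 5, 4 and 15 counts in wt total RNA and 8, 18 and 14 counts in wt cytoplasm. It was at least 7.09-fold lower in total RNA and at least 13.9-fold lower in the cytoplasm. Fnip2, which encodes a folliculin-interacting protein and lies 316 kb from Gask1b, averaged 13.995 ± 5.49 CPM in Mkrn3ox-labelled and 108 ± 51.9 CPM in wt total RNA (log2 fold change -2.91, edgeR adjusted p = 0.000581). In the cytoplasm Fnip2 averaged 30.1 ± 9.48 CPM in Mkrn3ox-labelled and 63.8 ± 9.47 CPM in wt libraries, short of the threshold (-1.08, edgeR adjusted p = 0.170).

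Arhgdib, 10.3 kb from Pde6h, averaged 0.614 ± 1.06 CPM in Mkrn3ox-labelled and 14.1 ± 5.35 CPM in wt total RNA (log2 fold change -4.08). In the cytoplasm it averaged 0.832 ± 1.44 CPM in Mkrn3ox-labelled and 39.6 ± 7.94 CPM in wt libraries (-5.26). The farther neighbours of Pde6h, Wbp11, H2aj and Atf7ip, did not pass in either fraction, nor did Trappc8 and Rnf125 near B4galt6 or 4930579G24Rik near Gask1b. In total RNA the calls of Tmem144, Arhgdib and Nid2 each were lost on leaving out single libraries of either line, and 1 to 3 neighbours were lower in such fits. Fnip2 passed in total RNA under all 13 alternatives. In the cytoplasm the call of Nid2 was lost in 3 of 11 alternatives, all leaving out 1 library. Tmem144, Arhgdib and Nid2 pass the filter on low counts only through wt libraries, so their calls are not read as support.

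Nid2, the basement membrane protein nidogen 2, overlaps the end of Rtraf by 386 bases, so reads of one row can be taken for the other. Nid2 averaged 3.01 ± 3.86 CPM in Mkrn3ox-labelled and 31.4 ± 11.1 CPM in wt total RNA (log2 fold change -3.29), and 0.832 ± 1.44 CPM against 24.3 ± 10.0 CPM in the cytoplasm (-4.56). The order within the pair was opposite in the 2 experiments. In wt total RNA Rtraf had 607 counts over 3 libraries and Nid2 58, while in the GFP inputs Rtraf had 2912 counts and Nid2 10785. Values of Rtraf, its enrichment beyond GFP included, are uncertain to that extent.

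Tmem252 overlaps Pgm5, on the opposite strand, by 1401 bases, and this pair changed order too. In wt total RNA Tmem252 had 188 counts and Pgm5 6, while in the GFP inputs Tmem252 had 0 counts and Pgm5 266. Pgm5 had 0 counts in all 6 Mkrn3ox-labelled libraries. Values of Tmem252, its folds between the lines included, are uncertain to that extent as well. Gask1b overlaps the minus-strand gene Gm36569 by 2323 bases, but that row had 0 counts in the fractionation libraries and at most 9 in any RIP library. B4galt6 overlaps Gm31437, which has no row in the tables used here, and Gm10269, 1597 bases from B4galt6, had at most 2 counts in any library. Pdpn, Pde6h and Arap2 had no other gene within 5 kb, which includes Pde6h, whose level differed most between the experiments beside that of Tmem252. What set these orders and levels was not tested.

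The partners of each gene's pathway were taken from lists chosen with earlier results of these data known. Few were tested, so their counts are read no further than beside the called shares of all genes, 7.39% for total RNA and 10.5% for cytoplasm. Of 8 tested podoplanin partners and ERM linkers, 1 was higher in Mkrn3ox-labelled total RNA. It was Cd44, a hyaluronan receptor, at 53.4 ± 10.8 CPM in Mkrn3ox-labelled and 9.99 ± 6.93 CPM in wt libraries (log2 fold change 2.42, edgeR adjusted p = 0.0191, called in 9 of 12 alternatives). In the cytoplasm 2 were lower, the tetraspanin Cd9 (-1.11, edgeR adjusted p = 0.0351) and moesin, Msn (-0.97, adjusted p = 0.0463). Cd9 was called in 7 of 13 alternatives and Msn in 2 of 13. The list's median was 0.06 in total RNA and -0.01 in the cytoplasm, beside -0.01 and 0.03 over all genes.

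Of the lactosylceramide and ganglioside list, 8 genes were tested, with 0 called in total RNA and 1 lower in the cytoplasm. That gene was Ugcg, the glucosylceramide synthase whose product B4galt6 extends, at 67.5 ± 21.99 CPM in Mkrn3ox-labelled and 169 ± 52.6 CPM in wt cytoplasm (-1.31, edgeR adjusted p = 0.0169, called in 9 of 13 alternatives). None of 11 tested Arf6 regulators, 3 FAM20 and GASK Golgi kinases or 2 tRNA ligase genes was called in either fraction. Their medians in total RNA were 0.35, -0.74 and 0.35. None of the 17 genes of the phototransduction list had enough counts to be tested in the fractionation libraries, the catalytic partners of Pde6h among them. Between the RIP inputs 0 genes of any of these lists were called by edgeR, where 2 of 13052 genes (0.0153%) were.

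Of the 7 tested genes of the tRNA ligase list, 5 were lower and 0 higher in enrichment beyond GFP, where 11.1% of all genes were lower and 13.2% higher, with a median of -0.52 beside 0.04 over all genes. In the GFP-Mkrn3 IP none of the 7 was called (median -0.21), where 26.7% of all genes were. In the GFP IP 5 were higher and 1 lower (median 0.39), where 25.1% of all genes were higher and 25.2% lower. Fam98b (-0.69, edgeR adjusted p = 0.00935), Fam98a (-0.69, adjusted p = 0.00747), Ddx1 (-0.55, adjusted p = 0.00703) and Nin (-0.52, adjusted p = 0.0172) led the calls beyond GFP, followed by the ligase Rtcb (-0.44, adjusted p = 0.0470). Ddx1, the complex's helicase, averaged 170.01 ± 21.5 CPM in the GFP-Mkrn3 IPs and 227 ± 14.7 CPM in the GFP IPs. With library size as scaling 3 of the 7 were lower, and Rtcb was called in 9 of 18 alternatives. Rtraf, at 1.04, had the opposite sign to these 5 listed genes.

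Other lists were mixed in enrichment beyond GFP, where 24.3% of all genes were called, 13.2% higher and 11.1% lower. Of 19 tested Arf6 regulators, 3 were higher, led by Git1 (0.68, edgeR adjusted p = 0.0113), and 1 was lower, Acap2 (-0.38, adjusted p = 0.0182). With library size 5 were higher and 0 lower, with DESeq2 2 and 2, and Iqsec1, one of the 3, was called in 6 of 18 alternatives. Of 9 podoplanin partners and ERM linkers, 1 was higher, Cd9 (1.04, edgeR adjusted p = 0.00885), and 4 were lower, among them radixin, Rdx (-0.73, adjusted p = 0.000705). Of 18 lactosylceramide and ganglioside genes, 1 was higher and 3 lower, and with library size as scaling 4 were higher and 2 lower. Pde6d, the one gene of the phototransduction list tested, was higher (0.65, edgeR adjusted p = 0.00946).

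Over the 8 group means, the genes outside the 7 whose pattern lay nearest to each of the 7 were few and recurring. Likeness was the root mean square difference of log2(CPM + 1), centred within each table, against 4400 genes tested in both. Rankings below leave out the 7 themselves. Among these, Gask1b and Tmem252, which was not tested in the RIP experiment, lay 0.16 apart. Plppr4 was among the 3 nearest of Pde6h, Rtraf, Arap2, B4galt6 and Tmem252, and ranked nearest to B4galt6 (0.19). Plppr4 averaged 14.2 CPM in Mkrn3ox-labelled and 405 CPM in wt total RNA. Magea9 was nearest to Pde6h (0.22) and Gask1b (0.29), with 0 CPM in Mkrn3ox-labelled and 81.9 CPM in wt total RNA. Centring leaves out the level: over the RIP groups Magea9 averaged 228 to 358 CPM and Pde6h 0.528 to 2.36 CPM. Med12l was nearest to Pdpn (0.43) and Arl4c to Arap2 (0.25). These are descriptions over 8 points that share libraries, with the fall between the lines as their main feature.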

How the data were processed

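RNA was measured in 24 CEL-seq2 libraries of mouse GT1-7 cells, 3 in each of 8 groups taken from the labels. Per the submitters' processing notes, cutadapt, STAR and HTSeq were used with build mm10. The sources used here name no tool version, annotation, strand setting or use of molecular identifiers. The authors deposited raw counts per gene in 2 tables of 57010 rows. Rows of the RIP table, which has no symbols, were named by matching identifiers.

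Each table was fitted on its own with edgeR 4.0.16 in R 4.3.3 (TMM, filterByExpr by group, group means, quasi-likelihood F test, two-sided, Benjamini-Hochberg over all tested genes, call at 0.05), after the script was tested on simulated data. The 7 contrasts were Mkrn3ox against wt in each fraction, cytoplasm against total RNA in wt, GFP-Mkrn3 against GFP inputs, IP against input per plasmid, and enrichment beyond GFP. Approximate intervals are 1.96 SE. The genes and lists were chosen with earlier results of these data known. Named are the 7 genes, up to 4 called genes per list, called or overlapping neighbours, and the genes outside the 7 nearest in pattern. Promoters are RefSeq's, of GRCm38.p6. Alternatives were DESeq2 1.42.0 (test and size factors), library size, other filters, only the groups compared, a replicate block and leaving out each library. Same-numbered libraries showed little shared deviation (Pearson r -0.07 to 0.04 and -0.15 to 0.24 over 18 pairs in each table). That cannot exclude that an IP and an input came from 1 lysate, and no fit modelled such pairs. Python 3.11.15, pandas 2.3.3, scipy 1.17.1 and matplotlib 3.10.9 were used for the rest. Intervals of the folds cover counting error only. Floors cover that of the group at 0 counts and take the other group's counts as exact.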

Additional observations from a re-analysis of the deposited data

Results flagged for a closer look

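Rtraf's IP over input differed between the plasmids, at -0.05 on the log2 scale with GFP-Mkrn3 and -1.09 with GFP, and the interaction term gave 1.04 (SE 0.15, edgeR adjusted p = 0.000105). In each of the 3 GFP-Mkrn3 IP libraries Rtraf was higher than in all 3 GFP IP libraries. Nid2, which overlaps Rtraf by 386 bases, had 20912 counts in the GFP-Mkrn3 IPs and 15073 in the GFP IPs, and its part in the result was not tested.

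Arap2's IP over input differed in the other direction, at -0.03 with GFP-Mkrn3 and 0.43 with GFP, and the interaction term gave -0.46 (SE 0.16, edgeR adjusted p = 0.0378). All 3 GFP-Mkrn3 IP libraries lay below all 3 GFP IP libraries, and 8 of 18 alternatives passed the threshold.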

How the results depend on the processing

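Called values of Rtraf, Pdpn and B4galt6 in the pull-down kept their direction and call under all alternatives run. The calls that did not are those of Arap2 in enrichment beyond GFP, lost without a filter (-0.44), with library size (-0.27) and in 8 of 12 leave-outs, and of Pde6h in the GFP IP. Genes called beyond GFP numbered 3178, and without GFP-Mkrn3 IP library 3 they numbered 4359.

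The number of the 7 genes called moved as follows: for cytoplasm against total RNA in wt, 1 with DESeq2 (Pde6h), and for enrichment beyond GFP, 1 without a filter and 1 to 3 in leave-outs. Genes called between the inputs numbered 2, or 6 with DESeq2, 34 without a filter, 4 with only the groups compared and 1 to 3 in leave-outs. Between the lines in total RNA 372 genes were called, and 234 to 306 in leave-outs. Neighbours called in total RNA numbered 4, or 1 with a filter at a mean of 20 counts, 2 with only the groups compared, 3 with library size, 1 with the replicate block and 1 to 3 in leave-outs. In the cytoplasm they numbered 3, or 1 with that filter (higher), 1 with only the groups compared, 4 (1 of them higher) with DESeq2, with library size and without wt cytoplasm library 3, and 2 to 4 in leave-outs. The cause was not tested, beyond the fewer libraries or genes those fits hold.

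Values that changed sign were all short of the threshold. For cytoplasm against total RNA in wt, the log2 fold change of B4galt6 (0.02) was -0.0217 with DESeq2, -0.0209 with its size factors, -0.0215 with only the groups compared, -0.0678 without a filter, -0.21 with library size and -0.43 to 0.35 in leave-outs. Gask1b (0.03) was -0.0686 with the filter at 20, -0.0489 without one, -0.00727 with only the groups compared, -0.21 with library size and -0.0930 to 0.12 in leave-outs. Tmem252 ran from -0.27 to 0.30 in leave-outs. Between the inputs, Rtraf (0.00) was -0.000282 with DESeq2, -0.000479 with its size factors, -0.00343 with the filter at 20 and -0.0150 with library size. Leave-outs of the input contrast ran from -0.0627 to 0.13 for Rtraf, -0.0892 to 0.0136 for Pdpn, -1.17 to 0.46 for Pde6h, -0.00463 to 0.15 for Arap2 and -0.0484 to 0.0776 for B4galt6. With library size, IP over input turned to 0.0345 for Rtraf and 0.0566 for Arap2 with GFP-Mkrn3, and to -0.0339 for Gask1b with GFP. Leave-outs with GFP-Mkrn3 ran from -0.14 to 0.0510 for Arap2 and -0.0822 to 0.25 for Gask1b, and beyond GFP from -0.19 to 1.44 for Pde6h and -0.16 to 0.17 for Gask1b.

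Library size moved the median of all genes by over 0.1, to 0.38 between the lines in the cytoplasm, -0.22 for cytoplasm against total RNA and 0.23 beyond GFP, where 2845 genes were then higher and 603 lower against 1724 and 1454. With the replicate block, which joins same-numbered libraries across all groups of an experiment and does not model pairs per lysate, no tested call of the 7 genes changed. The value of Rtraf beyond GFP was 1.04 and that of Arap2 -0.46, and 1 neighbour was called in total RNA as given above. Fractionation depth limits Arap2 and B4galt6 most, with 8 to 33 counts in wt libraries.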

Other observations

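Of the 23 placed genes near absent in both fractions of the stable line, 8 lay on 1 chromosome (fold and level as above). The 7 genes described here are among the 23 and lie on 7 chromosomes. The grouping of the 8 was seen after the values were known and was not tested.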
